A study of Homo sapiens with 22 samples.

Results

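Binding of the circadian transcription factors BMAL1 (ARNTL) and CLOCK was examined at 8 genes that link the clock to cell division and metabolism. The genes were WEE1, CDKN1A, MYC and CCND1 (cell cycle) and NAMPT, PFKFB3, TXNIP and VEGFA (metabolism, redox control and blood vessel growth). A peak belonged to a locus when its midpoint lay in the gene or within 10 kb of either end, in genome build hg19. By this rule 9 of 9584 listed BMAL1 peaks (0.0939%) and 0 of 269 listed CLOCK peaks were found, at 5 of the 8 loci. The peaks came from chromatin immunoprecipitation and sequencing (ChIP-seq) of THP-1, an established line of human monocytic leukaemia cells with an MLL-AF9 fusion gene. The series describes 22 libraries, 15 of NOMO-1 and 7 of THP-1 cells, and 2 of them were used here. These were 1 BMAL1 and 1 CLOCK library of THP-1 cells that had received no treatment and had been fixed with 2 mM of the protein crosslinker EGS for 30 minutes and then 1% formaldehyde for 30 minutes. Both groups are therefore the same line, grown and fixed alike, and differ in the antibody (anti-BMAL1 or anti-CLOCK). The labels name neither a synchronisation of the cells nor a time of harvest. With 1 library per factor, no value below has a replicate error and no test between conditions was possible. The sequencing depth behind the peaks is unknown, and scores are the authors' own values without a stated unit.

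BMAL1 and CLOCK pair through their basic helix-loop-helix and PAS domains and bind E-box DNA, whose canonical form is CACGTG. Besides the genes of the clock itself, the pair is known to act on output genes that carry the rhythm into other processes. WEE1 encodes the kinase that holds back entry into mitosis and is a textbook clock output in the liver, and NAMPT, the rate-limiting enzyme of NAD salvage, is another.

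RefSeq promoter sequences (build GRCh38.p14) were at hand for 4 of the 8 genes, CDKN1A, NAMPT, PFKFB3 and TXNIP, with 6 annotated starts among them. The 250 bases before the start are shown for the first of the 2 annotated starts of TXNIP, because a BMAL1 peak lay over the start of this gene, and for both starts of PFKFB3, because it was the only 1 of these 4 genes with CACGTG in a promoter window. Capitals mark CACGTG in PFKFB3. In TXNIP they mark 2 copies of CACGAG with 5 bases between them, a form of the carbohydrate response element through which glucose-sensing factors of the MondoA and ChREBP family are known to act.
TXNIP, first start, chr1:145996580-145996829, minus strand: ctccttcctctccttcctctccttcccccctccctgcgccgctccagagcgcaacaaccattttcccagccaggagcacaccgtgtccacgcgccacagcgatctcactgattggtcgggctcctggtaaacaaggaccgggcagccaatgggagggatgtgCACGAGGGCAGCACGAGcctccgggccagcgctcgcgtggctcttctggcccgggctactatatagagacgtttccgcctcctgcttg
PFKFB3, first start, chr10:6144671-6144920, plus strand: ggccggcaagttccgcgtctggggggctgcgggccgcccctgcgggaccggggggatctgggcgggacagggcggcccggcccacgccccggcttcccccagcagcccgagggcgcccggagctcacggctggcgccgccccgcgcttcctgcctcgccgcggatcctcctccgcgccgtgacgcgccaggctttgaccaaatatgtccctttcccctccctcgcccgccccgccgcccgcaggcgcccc
PFKFB3, second start, chr10:6202682-6202931, plus strand: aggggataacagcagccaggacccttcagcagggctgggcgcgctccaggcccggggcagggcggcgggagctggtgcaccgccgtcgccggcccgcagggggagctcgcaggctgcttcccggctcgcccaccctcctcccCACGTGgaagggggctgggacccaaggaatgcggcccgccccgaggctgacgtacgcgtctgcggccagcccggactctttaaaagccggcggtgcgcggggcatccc

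The canonical E-box was searched in the 300 bases from 250 before to 50 after each start. As a palindrome it reads the same on both strands. It stood in 1 of the 6 promoters, that of the second PFKFB3 start, from 108 to 103 bases before the start, against 7.26% of all 35116 promoters in the table. The related form CACGTT, read on both strands, stood in 0 of the 6 and in 5.34% of all. That paired CACGAG motif, a motif chosen after the TXNIP sequence had been seen and searched on both strands, stood in 2 of the 35116 promoters, those of TXNIP and KCTD5. In TXNIP it ran from 88 to 72 bases before the first start, and it was not found at the other TXNIP start, chr1:145995745-145995994, which is not printed. These are matches of letters in short windows of another build than that of the peaks, and none was placed inside a peak.

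BMAL1 peaks were found at 2 of the 4 cell cycle loci and at 3 of the 4 other loci. The latter are called metabolic for short, although VEGFA was included for blood vessel growth. Among genome windows as wide as the 8 loci, 6.59% (the narrowest, TXNIP) to 22.4% (the widest, PFKFB3) held a BMAL1 peak, as set out by locus further on. CDKN1A, MYC, TXNIP and VEGFA had 2 peaks each and PFKFB3 had 1. WEE1, CCND1 and NAMPT had none. By midpoint, 3 of the 9 peaks lay upstream of a gene, 3 inside a gene and 3 downstream. Genes and flanks differ in width, so these counts do not measure a preference for position. In the map of the loci the peaks in the windows stand beside those within 50 kb.

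**Figure D1:**
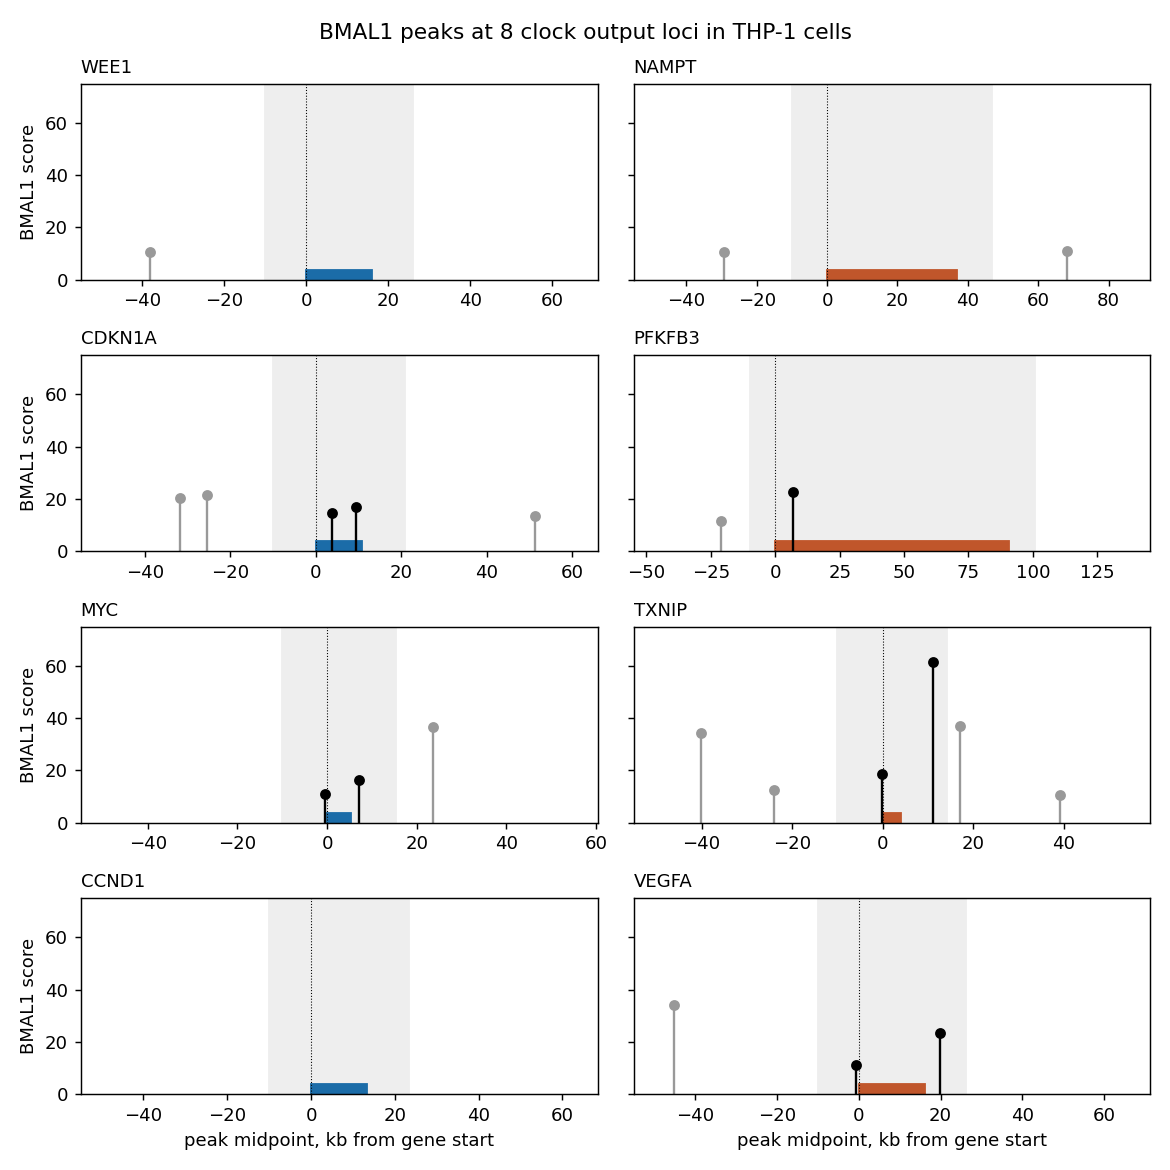
BMAL1 peaks at the 8 loci, cell cycle genes on the left (blue bars) and metabolic genes on the right (orange bars), with the score on the vertical axis and the distance of the midpoint from the gene start in kb, in the direction of transcription, on the horizontal axis. Black stems are the 9 peaks in the window (grey band, the gene and 10 kb on either side), grey stems those up to 50 kb away, and the highest stem is the TXNIP peak scoring 61.5.

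Among the cell cycle genes, CDKN1A encodes p21, an inhibitor of cyclin-dependent kinases (chr6:36644237-36655116). Both of its peaks lay inside the gene. The first, chr6:36647747-36648143, was centred 3708 bp past the gene start and scored 14.5. The second, chr6:36653428-36653824, was centred 9389 bp past the start and scored 17. The first score equalled the median of the whole BMAL1 list, 14.5, and the second was reached or exceeded by 37.4% of listed peaks. Beyond the window, 2 peaks lay 25454 and 31723 bp upstream of CDKN1A, with scores of 21.5 and 20.5, both higher than the scores inside the gene. Another outside peak lay 40468 bp past its end and scored 13.5.

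MYC encodes a transcription factor that drives growth and proliferation and itself binds E-box DNA (chr8:128748315-128753680). One peak, chr8:128747616-128748012, was centred 501 bp upstream of the gene start and scored 11. This is near the lowest score of the list, 10, and 85.1% of listed peaks scored as high or higher. The other, chr8:128755283-128755679, was centred 1801 bp past the gene end and scored 16.5. A stronger peak stood outside the window, chr8:128771748-128772144, centred 18266 bp past the end. It scored 36.5, a value reached by 5.60% of listed peaks.

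WEE1 (chr11:9595228-9611313) had no BMAL1 peak in its window. The nearest, chr11:9556961-9557357, lay 38069 bp upstream and scored 10.5, a score that 92.0% of listed peaks reached. CCND1, which encodes cyclin D1, the partner of the kinases that start the cell cycle (chr11:69455873-69469242), was the most remote of the 8 from a listed BMAL1 peak. Its nearest, chr11:69320692-69321088, lay 134983 bp upstream and scored 21. CCND1 was also the only 1 of the 8 loci with no BMAL1 peak within 50 kb.

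Of the metabolic loci, TXNIP held the strongest peak of the set. TXNIP encodes thioredoxin-interacting protein, which restrains glucose uptake and inhibits thioredoxin (chr1:145438462-145442628). One of its peaks, chr1:145438069-145438465, spanned the gene start, reaching from 393 bp before to 3 bp after it, and scored 18.5. The GRCh38 sequence before the start is shown above, but the hg19 sequence under the peak was not read. The gene is read on the plus strand in hg19 and on the minus strand in GRCh38. The stronger peak, chr1:145449349-145449745, was centred 6919 bp past the gene end and scored 61.5. It ranked 112 in the BMAL1 list, and 1.19% of listed peaks scored as high. Of the 1187 BMAL1 peaks listed on chromosome 1, 42 scored higher. Another peak followed 13034 bp past the end with a score of 37, just outside the window. Within 50 kb TXNIP had 6 BMAL1 peaks, more than any other of the 8 loci. In GRCh38 the next protein-coding genes on either side of TXNIP are POLR3GL and HJV, and the peaks past its end were not assigned to any one gene.

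PFKFB3 encodes an enzyme that makes fructose 2,6-bisphosphate, the allosteric activator of glycolysis (chr10:6186843-6277507). Its single peak, chr10:6193522-6193918, was centred 6877 bp past the gene start, inside the gene. The score of 22.5 was reached by 19.8% of listed peaks. One further peak, scoring 11.5, lay 21215 bp upstream. Neither of these lies over the start of the hg19 gene interval, from which both distances were measured. The CACGTG stood before the second PFKFB3 start, whose GRCh38 window begins at 6202682, against 6144671 for the first. It was not placed relative to these peaks.

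VEGFA encodes the vascular endothelial growth factor A (chr6:43737946-43754224). The peak next to its start, chr6:43737068-43737464, was centred 680 bp upstream and scored 11, the same low score as at the start of MYC. The other, chr6:43757584-43757980, was centred 3558 bp past the gene end and scored 23.5, a score reached by 17.9% of listed peaks. A further peak, 45087 bp upstream and outside the window, scored 34.

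NAMPT (chr7:105888732-105925638) is read from high to low coordinates and had no peak in its window. The nearest on its upstream side, chr7:105954630-105955026, lay 29190 bp from the gene and scored 10.5. On the downstream side the nearest lay 31151 bp away and scored 11. Both scores are close to the lowest in the list, so NAMPT and WEE1 were alike in having only low-scoring BMAL1 peaks within 50 kb.

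The scores of the 9 peaks ran from 11 to 61.5 with a median of 17, against a range of 10 to 320.5 and a median of 14.5 over all 9584 BMAL1 peaks. At or above the list's median were 7 of the 9, where the whole list has 51.8%. At or above the list's upper quartile of 20 were 3 of the 9, where the list has 26.2%. By either limit the count is small, and 3 of 9 is near the share of the list. The cell cycle peaks scored 11 to 17 (median 15.5, 4 peaks) and the metabolic peaks 11 to 61.5 (median 22.5, 5 peaks), and these ranges overlap. In the windows, all 3 peaks scoring 20 or more stood at metabolic loci, 1 each at PFKFB3, TXNIP and VEGFA. This contrast rests on the 10 kb limit. Beyond it but within 50 kb, such peaks stood at MYC (36.5) and CDKN1A (21.5 and 20.5). They also stood at TXNIP (37 and 34.5) and VEGFA (34). No test of a difference between the groups was made with so few peaks.

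**Figure D2:**
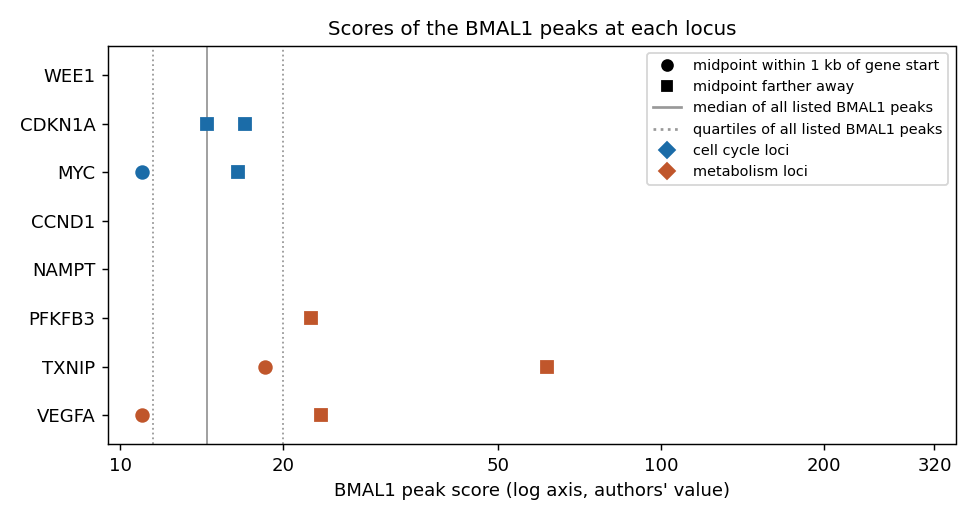
Score of each of the 9 BMAL1 peaks (horizontal log axis, the authors' value) by locus, with circles for midpoints within 1 kb of the gene start and squares for the others. The grey lines give the median (14.5, solid) and quartiles (11.5 and 20, dotted) of all listed BMAL1 peaks, and the circles sit at 11, 11 and 18.5.

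Of the 9 peaks, the 2 with the lowest scores lay next to a gene start. With a limit of 1 kb, chosen after the values had been seen, 3 peaks lay near a start, those of MYC, VEGFA and TXNIP, with scores of 11, 11 and 18.5. The other 6 scored 14.5 to 61.5 with a median of 19.75. At each of these 3 loci the peak past the gene end scored higher than the peak at the start. The ranges of near and far peaks overlap, and only the TXNIP peak of the 3 at a start scored above the list's median. Outside the windows, the 13 BMAL1 peaks within 50 kb scored 10.5 to 37 with a median of 13.5.

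No CLOCK peak accompanied the BMAL1 peaks at these genes. None of the 9 BMAL1 peaks overlapped a CLOCK peak by 1 bp or more. This follows from the lack of any listed CLOCK peak near the loci. No interval is given, as the 9 peaks come from 1 library and are not independent trials. Over the whole list 140 BMAL1 peaks (1.46%) did, a share that would give 0.131 of 9 peaks, so 0 of 9 does not set these loci apart. In the authors' deposited table of common regions, 0 of 140 regions had their midpoint in the windows. These regions come from the same BMAL1 and CLOCK lists, so this repeats the count above and is not separate evidence.

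The nearest CLOCK peak to any of the 8 genes was far beyond the window. It was closest at VEGFA, at 342860 bp, with a score of 21.5 (chr6:43394820-43395352). At MYC the distance was 599398 bp and the CLOCK score 43 (chr8:128148651-128149183), and at PFKFB3 it was 810855 bp with a score of 19.5. The distances were 1.66 Mb at WEE1, 2.21 Mb at CDKN1A, also 2.21 Mb at CCND1, 3.44 Mb at TXNIP and 5.42 Mb at NAMPT. The median of these distances, measured from the gene's edge, was 1.93 Mb. From peak midpoints instead, the median distance to the nearest CLOCK midpoint was 895 kb for the 9 peaks. These 9 stand at 5 of the loci and leave out WEE1, CCND1 and NAMPT. For all listed BMAL1 peaks the median was 2935 kb, with quartiles of 868 and 8512 kb. Distances above 1 Mb were thus common over the whole list, and the median of the 9 peaks lay near its lower quartile.

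**Figure D3:**
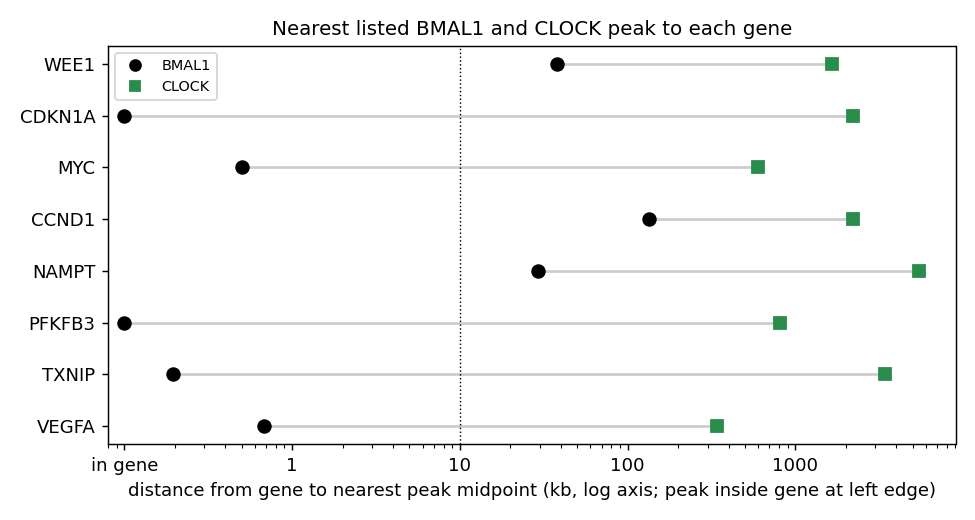
Distance from each gene to the nearest midpoint of a listed BMAL1 peak (black circles) and CLOCK peak (green squares), in kb on a log axis, with peaks inside the gene drawn at the left edge. The dotted line marks the 10 kb limit, which 5 genes pass for BMAL1 and 0 for CLOCK, the closest CLOCK peak lying 342.86 kb from VEGFA.

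The number of BMAL1 peaks was read against genome windows as wide as each locus, tiled along every chromosome up to its last peak. A window as wide as that of TXNIP (24.2 kb) held a BMAL1 peak in 6.59% of cases, and the share was 6.86% for MYC (25.4 kb), 8.14% for CDKN1A (30.9 kb) and 8.72% for CCND1 (33.4 kb). It was 9.31% for WEE1 (36.1 kb), 9.38% for VEGFA (36.3 kb), 13.5% for NAMPT (56.9 kb) and 22.4% for PFKFB3 (110.7 kb). Summed over the 8 widths, these shares come to 0.849 loci with a peak, where 5 were found. With windows of each gene's own chromosome alone the shares were 9.24 to 25.2% and came to 1.00 locus. The members were chosen with earlier results of these data known, so these comparisons describe the loci and are not a test. Of the loci with 2 peaks, windows as wide as that of TXNIP held 2 or more in 0.823% of cases, and the share was 0.892% for MYC, 1.25% for CDKN1A and 1.59% for VEGFA. For CLOCK the share of windows with a peak was 0.221% at the narrowest width (TXNIP) and 0.965% at the widest (PFKFB3), so 0 of 8 loci is close to what windows anywhere in the genome hold.

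**Figure D4:**
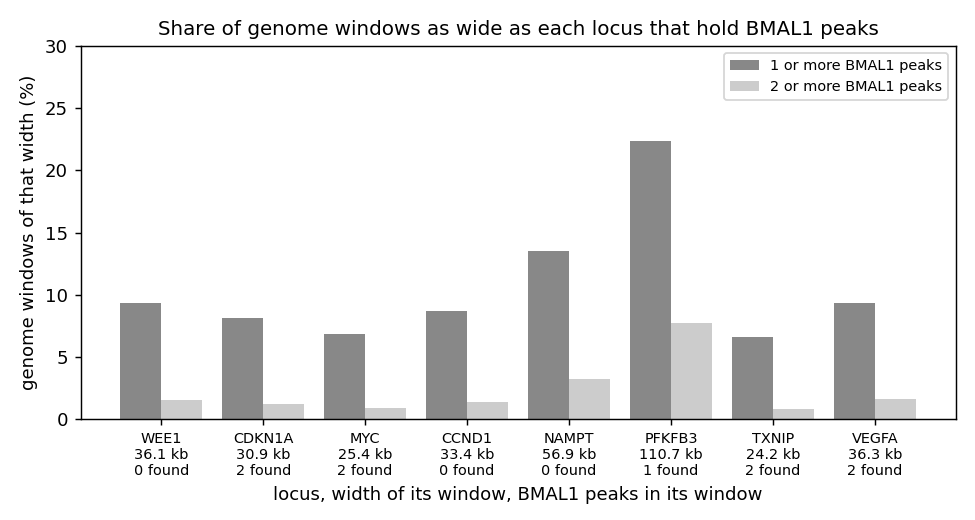
Percent of genome windows with at least 1 (dark bars) and at least 2 (light bars) BMAL1 peaks, for windows as wide as each locus. Under each gene stand the width in kb and the BMAL1 peaks found there, and the bars are highest for PFKFB3, the widest locus, at 22.4 and 7.70%.

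Expressed as density, the 8 windows (353.72 kb in all) held 25.4 BMAL1 peaks per Mb, against 3.10 per Mb over the chromosomes. By locus, the windows of TXNIP, MYC, CDKN1A and VEGFA held 82.8, 78.8, 64.8 and 55.1 per Mb, each from 2 peaks. The window of PFKFB3 held 9.04 per Mb, and those of WEE1, CCND1 and NAMPT held 0. The pooled density therefore rests mainly on the 4 loci with 2 peaks. The stretches of 1 Mb on either side of the windows held 145 peaks, a mean of 9.06 per Mb over the 8 loci, so the surroundings were also denser than the genome. That local density was highest at CDKN1A (18.5 per Mb) and lowest at CCND1 (3.5 per Mb). It was 6 per Mb at WEE1 and 8 per Mb at NAMPT, which had no peak in the window, and 7, 9, 9.5 and 11 per Mb at PFKFB3, TXNIP, MYC and VEGFA. Genome windows include gene-poor and unsequenced stretches, while these windows were placed on genes. How many peaks other genes hold was not tested, as no hg19 annotation was used, so the density is not shown to be particular to these 8 genes. The choice of members with earlier results known limits this comparison too.

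Loci without a peak have to be read with the numbering of the lists. Each peak carries a number that rises as the score declines on its chromosome, with 0 exceptions among 9560 neighbouring BMAL1 and 245 neighbouring CLOCK pairs, and many numbers are absent. On chromosome 11, which carries WEE1 and CCND1, 166 of 692 BMAL1 numbers were absent, and on chromosome 7, which carries NAMPT, 122 of 584. On chromosome 1, which carries TXNIP, 1623 of 2810 BMAL1 numbers were absent. The CLOCK list lacked 61 of 81 numbers on chromosome 11, 64 of 75 on chromosome 7 and 1831 of 1856 on chromosome 1. The positions that belonged to these numbers are unknown. A listed peak is thus an observation, while its absence at WEE1, CCND1 or NAMPT, or of CLOCK at any of the 8 genes, does not show that the gene was unbound.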

How the data were processed

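Per the file headers' source column, the deposited peaks were called with HOMER, 1 list per library. Tools in the submitters' processing notes, listed there with no roles, are HOMER 4.7.2, Picard, SAMtools 1.2 and Bowtie 0.12.7, with build hg19. The sources used here do not state the control, threshold or filters of peak calling. Each peak's score is the authors' deposited value, in steps of 0.5, and was used within a list only. The other 20 libraries, input and IgG included, were not analysed here.

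Gene intervals in hg19 were those of the rule for the loci. Gene starts are the edges of these intervals in the known hg19 orientation (NAMPT reverse, the others forward), which the deposited files do not hold. They were not matched to the annotated GRCh38 starts of the promoter search, which may lie elsewhere in the gene. Named genes are the 8 members with every peak in their windows and the nearest peak outside. Other cell cycle and metabolic genes were not examined, as no hg19 annotation was used. Members, lists and alternatives were chosen with earlier results of these data known. Peaks were matched by midpoint or, between factors, by an overlap of at least 1 bp. Counting was tested on simulated peaks. Calculations used scipy 1.17.1, pandas 2.3.3, numpy 2.4.6 and matplotlib 3.10.9 under Python 3.11.15.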

Additional observations from a re-analysis of the deposited data

How the results depend on the processing

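Of 27 alternatives to 6 results, 22 left a count or share within 1.5 times its value and 5 moved it further. The 22 include every alternative for CLOCK peaks and shared peaks. These could only stay at 0, as the closest CLOCK peak lay 342.86 kb from a gene (VEGFA). With windows of 50 kb, 22 BMAL1 peaks were found in place of 9, at 7 loci, and with scores of 20 or more 3 peaks at 3 loci remained (PFKFB3, TXNIP and VEGFA). In the gene bodies alone, a limit added after the data were seen, there were 3 peaks at 2 loci (CDKN1A and PFKFB3). Wider windows and higher score limits change such counts by construction. The other window, score and merging settings gave 7 to 11 peaks at 5 loci, and CLOCK stayed at 0 peaks up to 100 kb, the last distance also added later. The mean share of genome windows with a BMAL1 peak was 10.6%, and 12.6% within 1 Mb of another peak. No paired analysis was possible because each factor has 1 library with a peak list used here. Depth is unknown, so unlisted sites may be bound.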
